A study of Homo sapiens with 6 samples.

Results

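The interferon regulatory factors (IRF) and STAT2 are transcription factors of the interferon response, and ISG15 is one of their targets. They were followed here in NALM6 cells, a long-used human leukemia line of B-cell precursor type (acute lymphoblastic leukemia), with the 9 genes taken by name: IRF1, IRF2, IRF3, IRF4, IRF7, IRF8, IRF9, STAT2 and ISG15. Of these, 8 had values, among 13494 genes in all, and IRF8 had no row among the FPKM values. The control cells received DMSO, the solvent, and the treated cells verteporfin, each for 48 h in RPMI medium with 10% serum, with 3 libraries per group. Verteporfin is a porphyrin known to block binding of the coactivator YAP to TEAD factors, and the study asked which Hippo pathway genes differ with it. The labels print its concentration as 0.6 mmol/L, a unit that may not be the one meant. Whether replicates were separate cultures is not stated in the labels, and p-values therefore reflect only the spread among these libraries, possibly a technical one. Levels are in FPKM, that is, fragments per transcript length and library size, added up over the transcripts of a gene. FPKM keep no read depth, so no counting interval is given.

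In the interferon response, type I interferons bind the receptor IFNAR and act through the kinases JAK1 and TYK2. STAT2 is then phosphorylated and joins IRF9 in the complex ISGF3, which binds interferon-stimulated response elements in genes such as ISG15. IRF3 and IRF7 act upstream, where they switch on interferon genes after viral nucleic acid is sensed. IRF1 and IRF2 bind the same elements, classically as an activator and as its antagonist. IRF4 and IRF8 are lymphoid factors with roles at the pre-B-cell stage. The product of ISG15 is a ubiquitin-like protein that is joined to other proteins.

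The promoter windows below show which of these genes carry the interferon elements themselves, beside ISG20, a further interferon target. ISG20 was picked for its log2 fold change, the largest among the listed interferon-stimulated genes tested. The windows come from RefSeq (build GRCh38.p14), run from 250 bases before to 50 bases after the annotated start, and are written 5′ to 3′ on the strand of the gene. Of the 9 genes 6 had a window, and IRF2, IRF3 and IRF7 had none in the table. Capitals mark matches, on either strand, to the core of the response element bound by ISGF3 and by IRF proteins (GAAA, a pair of any bases, then GAAA), or to TTCNNNGAA, the gamma-activated site bound by STAT dimers. In ISG15 (chr1:1013247-1013546, plus strand) a pair of overlapping core matches began 113 and 107 bases before the start. In ISG20 (chr15:88638766-88639065, plus strand) 1 core match began 69 bases before the start.
ISG15: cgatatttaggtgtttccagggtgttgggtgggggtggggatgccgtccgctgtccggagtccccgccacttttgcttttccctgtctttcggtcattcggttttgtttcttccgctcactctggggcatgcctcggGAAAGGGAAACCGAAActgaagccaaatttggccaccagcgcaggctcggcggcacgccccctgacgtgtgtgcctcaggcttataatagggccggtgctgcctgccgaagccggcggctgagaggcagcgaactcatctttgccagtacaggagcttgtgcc
ISG20: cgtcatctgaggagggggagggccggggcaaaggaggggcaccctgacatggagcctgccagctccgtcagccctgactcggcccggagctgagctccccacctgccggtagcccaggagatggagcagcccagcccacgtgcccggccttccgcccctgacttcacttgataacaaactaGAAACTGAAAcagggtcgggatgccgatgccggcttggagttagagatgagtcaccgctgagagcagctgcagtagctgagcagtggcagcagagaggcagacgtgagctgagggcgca

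The windows of IRF1 (chr5:132490724-132491023, minus strand) and IRF9 (chr14:24161015-24161314, plus strand) held no core match and 1 gamma-activated site each, which began 124 and 63 bases before the start. They are shown because they held a match. Both encode factors of the pathway that are themselves known to be induced by interferon.
IRF1: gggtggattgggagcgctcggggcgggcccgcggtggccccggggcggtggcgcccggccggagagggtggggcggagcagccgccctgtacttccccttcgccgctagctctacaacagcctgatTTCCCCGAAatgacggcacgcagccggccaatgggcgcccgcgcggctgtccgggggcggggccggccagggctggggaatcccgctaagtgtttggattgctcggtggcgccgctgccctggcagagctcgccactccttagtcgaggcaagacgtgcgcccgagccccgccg
IRF9: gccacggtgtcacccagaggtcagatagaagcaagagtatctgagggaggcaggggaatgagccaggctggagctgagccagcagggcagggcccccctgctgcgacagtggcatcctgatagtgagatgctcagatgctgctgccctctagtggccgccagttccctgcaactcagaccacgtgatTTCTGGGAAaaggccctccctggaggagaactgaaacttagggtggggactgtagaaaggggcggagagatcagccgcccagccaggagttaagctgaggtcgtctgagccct

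The windows of IRF4, IRF8 and STAT2 held neither motif. Among 35116 RefSeq windows of this length 3.57% held the core and 7.66% the gamma-activated site. Each match describes the letters of the window only.

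All 3 verteporfin libraries exceeded all 3 DMSO libraries for IRF1, IRF2, IRF4 and IRF7. IRF3 and ISG15 had lower means in verteporfin, and IRF3, ISG15, STAT2 and IRF9 overlapped between the groups. The largest difference was that of IRF7, 2.31-fold between the group means. No member passed the test (0 of 8 by limma at an adjusted p of 0.05), where 0.0154% of all genes passed. At an unadjusted p under 0.05 there were 3 of the 8 (IRF7, IRF1 and IRF2), all with higher values in verteporfin, against 8.84% of all genes in either direction and 4.36% with higher values. Groups that did not overlap, with higher values in verteporfin, were found for 4 of the 8, against 6.49% of all 12952 genes tested, and 0 of the 8 had all verteporfin values below DMSO, against 7.74%. Of the 7 factors with values 6 had a log2 fold change above 0, and the median of the 8 members was 0.45, beside 0.0074 over all genes. The genes were chosen with earlier results of these data known, so these shares describe them and carry no test of the set.

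**Figure D1:**
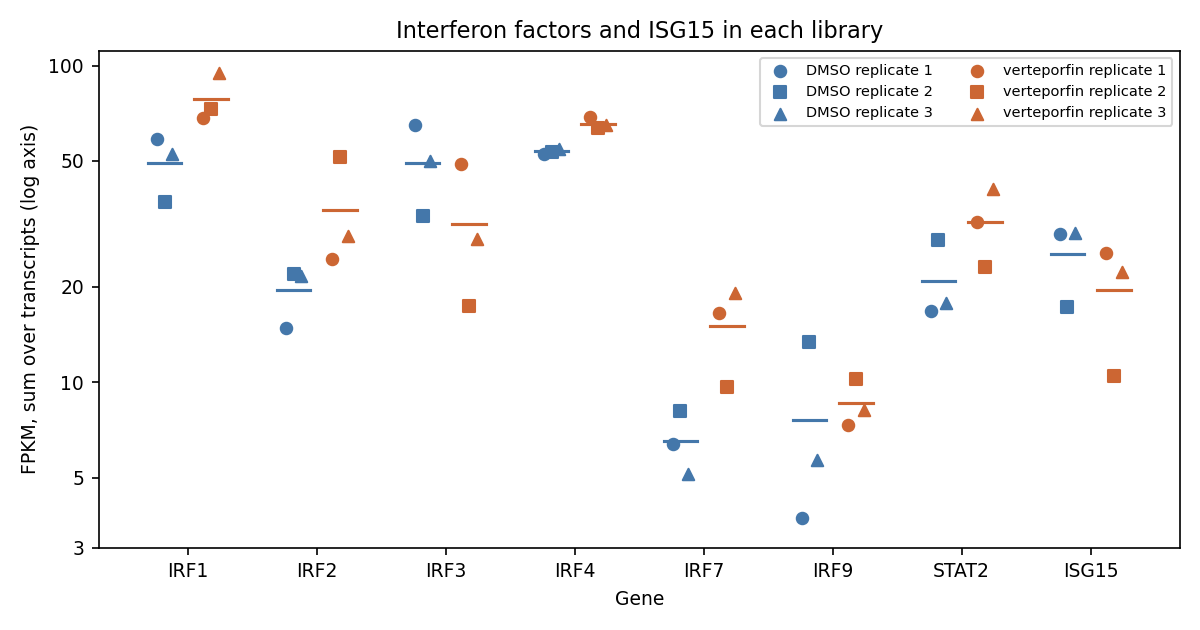
FPKM of each gene in each library, on a log axis, with DMSO in blue, verteporfin in orange, a symbol for each replicate number and a line at the group mean. The orange points of IRF1, IRF2, IRF4 and IRF7 all lie above the blue ones, while those of IRF3, IRF9, STAT2 and ISG15 overlap them.

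Several measures of the libraries bear on these values. The share of transcripts listed at 0 was 13.97 to 18.7% in DMSO and 5.23 to 11.3% in verteporfin. A 2-sided exact permutation test gave p = 0.1, which is its minimum for 3 against 3. Of the 69 transcripts of the members, 5, 12 and 11 were at 0 in DMSO replicates 1 to 3 and 8, 1 and 3 in verteporfin replicates 1 to 3, and the part of this in the results was not tested. Of 11 B-cell precursor markers 10 had values, with sums of 1520 to 1848 FPKM in DMSO and 1182 to 1913 in verteporfin. Of 14 markers of other cell types 2 (LYZ and NKG7) had values, with sums of 2.56 to 3.8 and 2.62 to 3.17 FPKM. In bulk RNA fewer cells with a transcript and less of it per cell cannot be told apart.

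IRF7 and IRF3, the factors that switch on interferon genes, had log2 fold changes of opposite sign, and neither passed the test. IRF7 (ENSG00000185507, chromosome 11) was at 6.36, 8.12 and 5.13 FPKM in DMSO and at 16.5, 9.69 and 19.1 FPKM in verteporfin. Every verteporfin library was above every DMSO library, with verteporfin replicate 2 closest to the DMSO range. The log2 fold change was 1.06 (95% interval 0.29 to 1.84, standard error 0.35), and limma gave an unadjusted p = 0.0121 (adjusted p = 0.438).

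IRF3 (ENSG00000126456, chromosome 19), which is present in resting cells and activated by phosphorylation, was at 64.9, 33.6 and 49.8 FPKM in DMSO and at 49.0, 17.4 and 28.3 FPKM in verteporfin. The groups overlapped, and in each group the library numbered 2 was the lowest. Its log2 fold change was -0.70 (95% interval -1.58 to 0.17, adjusted p = 0.629 by limma), and -0.35 without verteporfin replicate 2. BCL2L12, which overlaps IRF3 on the opposite strand, was at 48.2, 36.7 and 40.0 FPKM in DMSO and at 44.4, 21.5 and 30.9 FPKM in verteporfin. Whether the quantification used strand is not given in the sources used here, so reads of these neighbours may not be told apart.

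Within a library IRF7 was a small fraction of IRF3 in DMSO and a larger one in verteporfin. The ratio of IRF7 to IRF3 was 0.0980, 0.242 and 0.103 in DMSO and 0.338, 0.557 and 0.674 in verteporfin, with no overlap. The difference was 1.90 on the log2 scale, and a 2-sided exact permutation test gave p = 0.1, its minimum here, and 0.2 adjusted over the 2 ratios compared. Both ratios were chosen after the values were seen. Of the IRF7 transcripts a coding pair had the highest means. ENST00000397574 was at 1.43, 1.52 and 0.134 FPKM in DMSO and at 4.17, 2.65 and 3.68 FPKM in verteporfin. ENST00000330243 was at 1.85, 1.86 and 2.82 FPKM in DMSO and at 5.26, 1.78 and 9.0 FPKM in verteporfin, so that the groups of the first were apart and those of the second overlapped. Retained-intron transcripts made up 37% ± 12.3 of IRF7 FPKM in DMSO and 27.7% ± 3.44 in verteporfin (SD, n = 3).

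IRF1 and IRF2, the activator and antagonist pair, were both higher in verteporfin, in all 3 libraries each. IRF1 (ENSG00000125347, chromosome 5) was at 58.5, 37 and 52.6 FPKM in DMSO and at 68.2, 72.9 and 94.8 FPKM in verteporfin. The lowest verteporfin library lay above the highest DMSO library, and the log2 fold change was 0.67 (95% interval 0.04 to 1.3, adjusted p = 0.537 by limma). DMSO replicate 2 differed from the other DMSO libraries in which IRF1 transcript carried the FPKM. There ENST00000405885 was listed at 0, against 35.9 and 29.3 FPKM in DMSO replicates 1 and 3 and 32.7, 33.5 and 54.2 FPKM in verteporfin. ENST00000245414, also coding, was at 14.1 FPKM in DMSO replicate 2 and at 3.58 to 6.17 FPKM in the other libraries. The coding sum of IRF1 was 23.9 FPKM in DMSO replicate 2, against 47.5 and 42.5 FPKM in the other DMSO libraries. The noncoding gene C5orf56, which overlaps IRF1 on the opposite strand, was at 13.2 to 17.3 FPKM in DMSO and at 12.9, 16.1 and 26.9 FPKM in verteporfin.

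IRF2 (ENSG00000168310, chromosome 4) was at 14.8, 22 and 21.7 FPKM in DMSO and at 24.6, 51.5 and 29 FPKM in verteporfin. The groups were apart, but by a narrow gap, and verteporfin replicate 2 stood far above the others. Its fold change on the log2 scale was 0.76 (limma, 95% interval 0.0080 to 1.51, adjusted p = 0.559), and 0.45 without verteporfin replicate 2. That library held 18 FPKM of ENST00000512020, a processed transcript with no coding annotation, which was at 1.44 FPKM in verteporfin replicate 3 and listed at 0 in the other 4 libraries. The main coding transcript, ENST00000393593, was at 9.87, 14.3 and 11.2 FPKM in DMSO and at 15.1, 27.8 and 14.7 FPKM in verteporfin, again without overlap. The ratio of IRF1 to IRF2 overlapped between the groups, at 3.95, 1.68 and 2.42 in DMSO and 2.78, 1.42 and 3.27 in verteporfin (2-sided exact permutation p = 0.8). The interval of the pair's difference was not computed, so equal change is not shown.

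IRF4 (ENSG00000137265, chromosome 6), the lymphoid factor, had the smallest spread within groups relative to its means. It was at 52.7, 53.3 and 54.7 FPKM in DMSO and at 68.6, 63.4 and 64.8 FPKM in verteporfin. The groups were apart, with means of 53.6 ± 1.05 and 65.6 ± 2.68 FPKM (SD, n = 3), 22.4% higher in verteporfin. The log2 fold change was 0.29 with a 95% interval of -0.25 to 0.82 and an adjusted p of 0.769 by limma, whose standard error of 0.24 draws on the spread of other genes. IRF4 was the member least moved when single libraries were left out, with log2 fold changes of 0.25 to 0.31.

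The difference in IRF4 lay in its coding transcript. ENST00000380956, the 1 coding transcript of 4 listed, was at 40.8, 39.3 and 39.7 FPKM in DMSO and at 55.0, 55.2 and 51.6 FPKM in verteporfin. Its log2 fold change was 0.43 (95% interval -0.30 to 1.15, adjusted p = 0.834, limma over transcripts). The coding share of IRF4 FPKM was 77.5, 73.6 and 72.4% in DMSO and 80.2, 87.1 and 79.7% in verteporfin, also without overlap. IRF8, its closest relative, had no row, and a transcript is listed only with a mean of at least 0.5 FPKM in a group.

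STAT2 and IRF9, which act together in ISGF3, overlapped between the groups. STAT2 (ENSG00000170581, chromosome 12) was at 16.8, 28.1 and 17.7 FPKM in DMSO and at 32.0, 23.1 and 40.8 FPKM in verteporfin. DMSO replicate 2 was above verteporfin replicate 2, and the other libraries were apart. Its fold change on the log2 scale was 0.59 (limma, 95% interval -0.12 to 1.31, adjusted p = 0.612). Much of STAT2 was listed under transcripts without a coding annotation, and coding transcripts made up 28.8% ± 11.1 of its FPKM in DMSO and 44.0% ± 9.38 in verteporfin (SD, n = 3).

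Summed over coding transcripts only, a setting chosen after the data were seen, STAT2 was at 6.40, 8.89 and 2.94 FPKM in DMSO and at 10.6, 11.2 and 20.5 FPKM in verteporfin. The groups were then apart, and the log2 fold change was 1.14 (95% interval 0.17 to 2.1, adjusted p = 0.553 by limma). Its coding transcript ENST00000557235 was at 4.22, 0 and 0.251 FPKM in DMSO and at 5.68, 8.40 and 15.3 FPKM in verteporfin. The other coding transcripts of STAT2, ENST00000314128 and ENST00000418572, overlapped between the groups. In DMSO replicate 2, where ENST00000557235 was listed at 0, ENST00000418572 was at 8.54 FPKM, above every verteporfin library. With an unadjusted p of 0.00757 ENST00000557235 had the lowest p of the members' transcripts, and it did not pass over all transcripts (adjusted p = 0.633 by limma).

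IRF9 (ENSG00000213928, chromosome 14), which gives ISGF3 its DNA specificity, was at 3.74, 13.4 and 5.68 FPKM in DMSO and at 7.34, 10.2 and 8.20 FPKM in verteporfin. DMSO replicate 2 was the highest of all 6 libraries, and the other DMSO libraries were below all of verteporfin. Its fold change on the log2 scale was 0.31 (limma, 95% interval -0.64 to 1.25, adjusted p = 0.874), and it turned to -0.04 without DMSO replicate 1 and was 0.76 without DMSO replicate 2. Of its 8 transcripts 6 are annotated as retained introns. These made up 94.6% ± 4.96 of IRF9 FPKM in DMSO and 85.9% ± 6.25 in verteporfin (SD, n = 3). The coding transcripts summed to 0.234, 1.31 and 0 FPKM in DMSO and to 0.514, 1.71 and 1.53 FPKM in verteporfin.

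**Figure D2:**
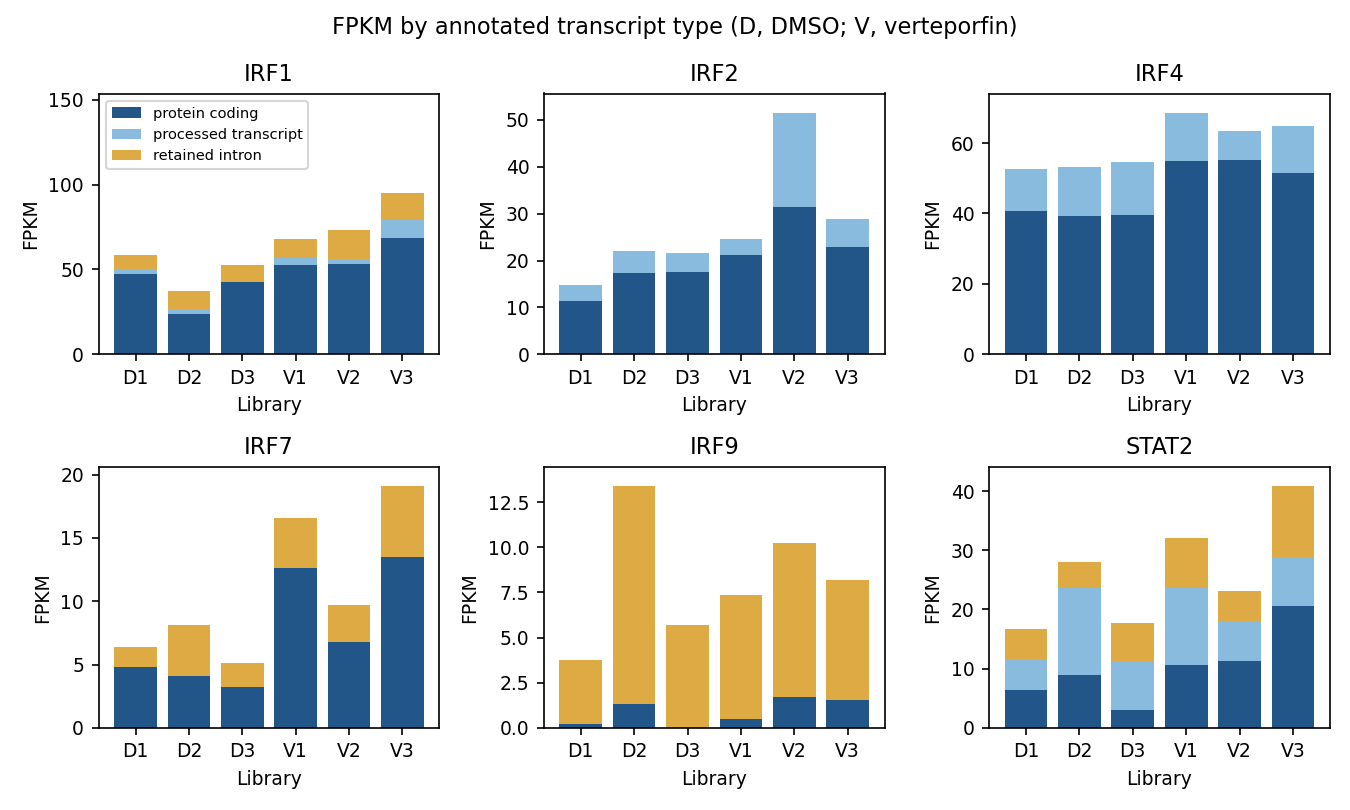
Stacked FPKM by annotated transcript type in each library, with 1 panel per gene and linear axes from 0. Coding transcripts form most of IRF1, IRF2 and IRF4 and a small part of IRF9, and the tall light-blue (processed transcript) part of IRF2 in verteporfin replicate 2 is largely the 18 FPKM of ENST00000512020.

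Over single transcripts limma called 0 of the members' 64 tested, where it called 0.0307% of all 55388. At an unadjusted p under 0.05 there were 5 of the 64, against 6.55% of all. Transcripts whose groups did not overlap numbered 7 higher and 5 lower in verteporfin, against 5.46% and 6.81% of all transcripts. The lower ones were transcripts of IRF3 or IRF4. Among the IRF3 ones, ENST00000602190, a processed transcript, was at 3.28, 1.38 and 4.89 FPKM in DMSO and at 0.959, 0.547 and 0.0243 FPKM in verteporfin.

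ISG15 (ENSG00000187608, chromosome 1), the target read beside the factors, was at 29.4, 17.2 and 29.6 FPKM in DMSO and at 25.7, 10.5 and 22.3 FPKM in verteporfin. The groups overlapped, and the library numbered 2 was again the lowest of each group, as in IRF3. Its fold change on the log2 scale was -0.42 (limma, 95% interval -1.26 to 0.43, adjusted p = 0.788). Without verteporfin replicate 2 it was -0.04. ISG15 thus lay below 0 while 6 of the 7 factors lay above it, though the intervals of ISG15 and of 3 of those 6 (IRF4, IRF9 and STAT2) included 0. Nearly all ISG15 FPKM came from the coding transcript ENST00000379389, and ENST00000624697 was listed at 2.45 FPKM in verteporfin replicate 1 and at 0 in the other libraries.

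The genes whose values over the 6 libraries were most like those of ISG15 were CHST7, which encodes a sulfotransferase, RAB40C, a small GTPase gene, and EHBP1L1. Their Pearson r with ISG15 on log2 of FPKM + 1 was 0.998, 0.997 and 0.997 among the 8571 genes averaging 5 FPKM or more. CHST7 was at 15, 7.64 and 15.1 FPKM in DMSO and at 12.8, 3.78 and 11.4 FPKM in verteporfin. All 3 genes shared the low values in the libraries numbered 2. With 6 libraries and this many genes such values describe the libraries and carry no test.

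**Figure D3:**
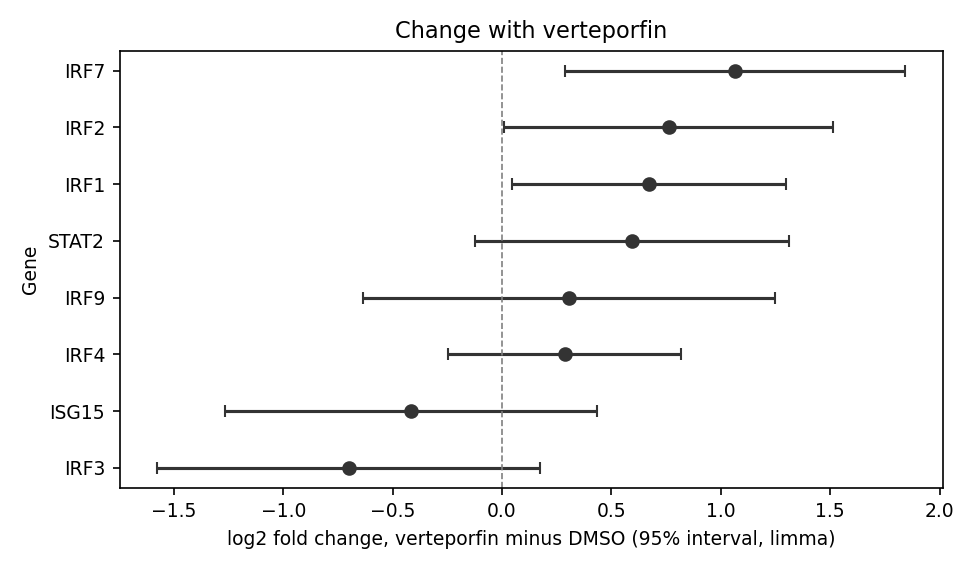
Log2 fold change of each gene, verteporfin minus DMSO, on log2 of FPKM + 1, with its 95% interval from limma. The intervals of IRF7, IRF2 and IRF1 lie above 0, before adjustment over all genes, and the others include 0.

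By level, IRF4, IRF3 and IRF1 led in DMSO, with means of 53.6, 49.4 and 49.4 FPKM and ranges that overlapped each other. ISG15 (25.4 ± 7.09), STAT2 (20.9 ± 6.27) and IRF2 (19.5 ± 4.07) followed, below all values of IRF1, and their neighbouring ranges overlapped. IRF9 (7.59 ± 5.09) and IRF7 (6.54 ± 1.51) were lowest, again with overlap (SD, n = 3). In verteporfin IRF1 (78.7 ± 14.2 FPKM) had the highest mean, its range overlapping that of IRF4, and these genes stood above all values of the next, IRF2 (35.0 ± 14.5). From IRF2 through STAT2 (32.0 ± 8.83), IRF3 (31.6 ± 16.1), ISG15 (19.5 ± 8.0) and IRF7 (15.1 ± 4.85) to IRF9 (8.58 ± 1.47) each range overlapped the next.

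The other genes of the pathway did not pass either. In 8 lists written from textbook knowledge, with earlier results of these data known, 103 genes were tested, and limma called 0 of them. At an unadjusted p under 0.05 there were 10 of the 103, against 8.84% of all genes. The groups did not overlap for 8 genes with higher and 5 with lower values in verteporfin, against 6.49% and 7.74% of all genes.

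The genes of the interferons themselves had no row, 0 of 6 listed. Of the receptors and JAK kinases 9 of 9 were tested, with 0 called in either direction, 5 log2 fold changes above 0 and a median of 0.04. JAK1, the kinase shared by type I and type II receptors, was at 23.5, 35.4 and 21.8 FPKM in DMSO and at 35.3, 47.3 and 44.8 FPKM in verteporfin. In limma the fit put the log2 change at 0.66, adjusted p 0.552. DMSO replicate 2 and verteporfin replicate 1 were at nearly the same level. IFNGR2, a chain of the interferon gamma receptor, averaged 5.94 ± 1.40 FPKM with DMSO and 3.13 ± 0.637 FPKM with verteporfin (SD, n = 3), without overlap. The log2 change by limma was -0.74, adjusted p 0.563. The log2 fold changes of JAK2 (0.48), IFNAR1 (0.24) and IFNAR2 (-0.14) had intervals that included 0. With 1 library left out they ranged from 0.16 to 0.84, from 0.025 to 0.42 and from -0.30 to -0.064.

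Of 8 other STAT and IRF genes 5 were tested, with 0 called and a median of -0.09. STAT3, which acts downstream of cytokines such as interleukin-6, was higher in each verteporfin library, at 17.4 ± 0.595 and 21.7 ± 1.39 FPKM (SD, n = 3), and limma gave a log2 difference of 0.30 (adjusted p = 0.776). STAT5A (-0.26), STAT6 (-0.18) and STAT5B (-0.09) had overlapping groups.

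Among the sensors of nucleic acid and their relay 14 of 16 were tested, with 0 called, 8 above 0 and a median of 0.23, and the members with the lowest p differed in both directions. TLR9, the endosomal sensor of unmethylated DNA, was at 9.77, 9.89 and 12.7 FPKM in DMSO and at 5.74, 4.50 and 4.61 FPKM in verteporfin. UNC93B1, which carries TLR9 to endosomes, was at 94.7, 72.6 and 92.3 FPKM in DMSO and at 60.8, 31.2 and 54.3 FPKM in verteporfin. TLR9 and UNC93B1 were thus lower in every verteporfin library, with log2 fold changes of -0.98 (adjusted p = 0.424 by limma) and -0.86 (adjusted p = 0.462). STING1, the adaptor of cytosolic DNA sensing, was at 1.04, 2.51 and 2.74 FPKM in DMSO and at 4.46, 2.95 and 7.57 FPKM in verteporfin. By limma the log2 change was 0.93, adjusted p 0.551. It was higher in every verteporfin library, at low FPKM, and over coding transcripts only the log2 fold change was 0.21. TRAF6 (0.69) and the kinase gene IKBKE (-0.57) overlapped between the groups.

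The enzymes that attach ISG15 to proteins or remove it were tested in 6 of 7 cases, with 0 called, 0 with groups apart and a median of -0.04. UBA7, the activating enzyme, was at 20.9 ± 1.94 FPKM in DMSO and at 43.1, 18 and 38 FPKM in verteporfin, where replicate 2 lay below all of DMSO. HERC5, the ligase, had a log2 fold change of 0.44, UBE2L6, the conjugating enzyme, one of -0.22, TRIM25 one of -0.16 and the protease gene USP18 one of -0.07, all with intervals that included 0.

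Interferon-stimulated genes other than ISG15 did not differ in 1 direction. Of 54 listed 46 were tested, with 0 called, 25 above and 21 below 0 and a median of 0.13. TRIM22, an antiviral ubiquitin ligase gene, was at 9.47, 18.4 and 15.3 FPKM in DMSO and at 23.3, 38.9 and 44.6 FPKM in verteporfin. In limma the fit put the log2 change at 1.25, adjusted p 0.404. ISG20, which encodes an exonuclease that degrades RNA, was at 4.82, 6.27 and 5.68 FPKM in DMSO and at 21.1, 8.27 and 31.2 FPKM in verteporfin. The log2 change by limma was 1.52, adjusted p 0.418. Both were higher in every verteporfin library. OAS1, which makes the activator of RNase L, was at 2.80 ± 0.159 and 6.01 ± 1.62 FPKM (SD, n = 3), also without overlap. By limma the log2 change was 0.86, adjusted p 0.493. IFIT2 (1.41) was near 1 FPKM or below in DMSO and overlapped, and TRIM14 was lower in every verteporfin library (-0.58, adjusted p = 0.569 by limma).

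Most genes of that list with a window carry the response element, and the tested ones with and without it had the same median. Tested genes without a window, TRIM22 and IFIT2 among them, are in neither group. Whether the element bears on the change was not tested. Of 44 listed genes with a RefSeq window 32 (72.7%) held the core, against 3.57% of all windows. The first is a share of genes and the second of windows, of which a gene can have several. The list was also made of known interferon targets. Of the 27 of these that were tested 14 had a log2 fold change above 0, with a median of 0.13, and of the 11 tested without a match 6 did, also with a median of 0.13. ISG15 and ISG20, printed above, both hold the core and had log2 fold changes of -0.42 and 1.52.

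**Figure D4:**
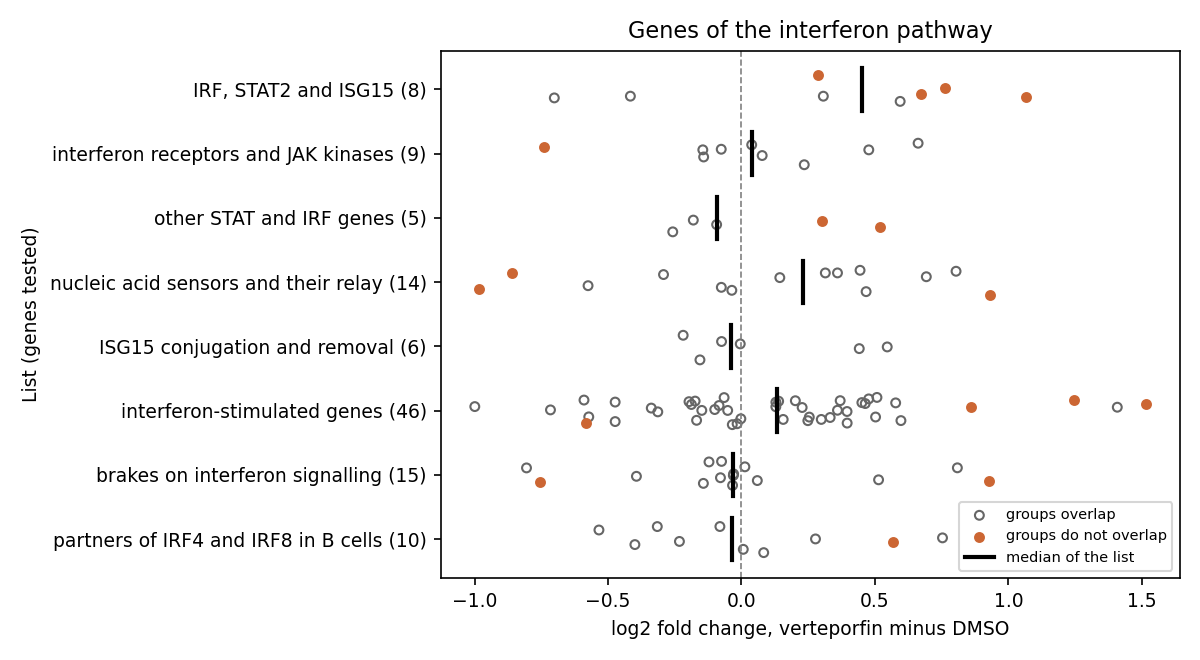
Log2 fold change, verteporfin minus DMSO, of each tested gene of the lists, with a bar at the median of the list, filled points where the groups do not overlap and open points where they do. Filled points lie on both sides of 0, and the medians of the 7 other lists lie between -0.09 and 0.23.

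Among genes that restrain the pathway 15 of 16 were tested, with 0 called, 5 above 0 and a median of -0.03. IRF2BP2, a corepressor that binds IRF2, was at 45.5, 35.1 and 39.9 FPKM in DMSO and at 75.5, 73.8 and 81.9 FPKM in verteporfin. It had the lowest p of all listed genes, with groups far apart (log2 fold change 0.93, 95% interval 0.37 to 1.48, unadjusted p = 0.00384 and adjusted p = 0.387 by limma). IRF2BP1, its relative, was at 79.2 ± 24.3 and 46.7 ± 20.3 FPKM (SD, n = 3), with a log2 fold change of -0.81 and overlapping groups, and it was at -0.40 without verteporfin replicate 2. PTPN11, which encodes the phosphatase SHP2, was lower in each verteporfin library (-0.75, adjusted p = 0.518 by limma). SOCS1, which blocks JAK kinases, was at 1.93 ± 0.355 FPKM in DMSO and at 6.33, 1.94 and 5.15 FPKM in verteporfin, and PIAS1 had a log2 fold change of 0.51.

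The B-cell partners of IRF4 and IRF8 were tested in 10 of 11 cases, with 0 called, 5 above 0 and a median of -0.04. SPI1, which encodes PU.1, the classic partner of IRF4 and IRF8 on composite sites, was at 53.8 ± 2.29 FPKM in DMSO and at 88, 46.5 and 68.3 FPKM in verteporfin, with overlap. BCL6, a repressor of germinal centre B cells that is also active in pre-B cells, was at 3.94 ± 0.802 and 6.30 ± 0.799 FPKM (SD, n = 3), higher in each verteporfin library. In limma the fit put the log2 change at 0.57, adjusted p 0.634. The plasma cell regulator gene PRDM1 (0.75), BATF3 (-0.53) and IKZF1 (-0.32), which encodes Ikaros, overlapped between the groups.

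The libraries differed in how much they weighed on the members. With library weights limma called 3 of the 8 members, IRF7 (log2 fold change 1.45, adjusted p = 0.00943), STAT2 (0.99, adjusted p = 0.0282) and IRF1 (0.80, adjusted p = 0.0375), all higher, where it called 8.35% of all genes and 5.35% as higher. Verteporfin replicate 3 weighed 3.88 in that fit and verteporfin replicates 1 and 2 weighed 0.416 and 0.363, and IRF7, STAT2 and IRF1 were each at their highest in that library. With the replicate number as a block 0 of the 8 passed, where 0.649% of all genes did. Over the fits that left out 1 library, the log2 fold changes of IRF7 ranged from 0.88 to 1.34, of IRF1 from 0.48 to 0.80, of IRF2 from 0.45 to 0.97, of STAT2 from 0.41 to 0.82, of IRF3 from -1.07 to -0.35 and of ISG15 from -0.66 to -0.04.

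**Figure D5:**
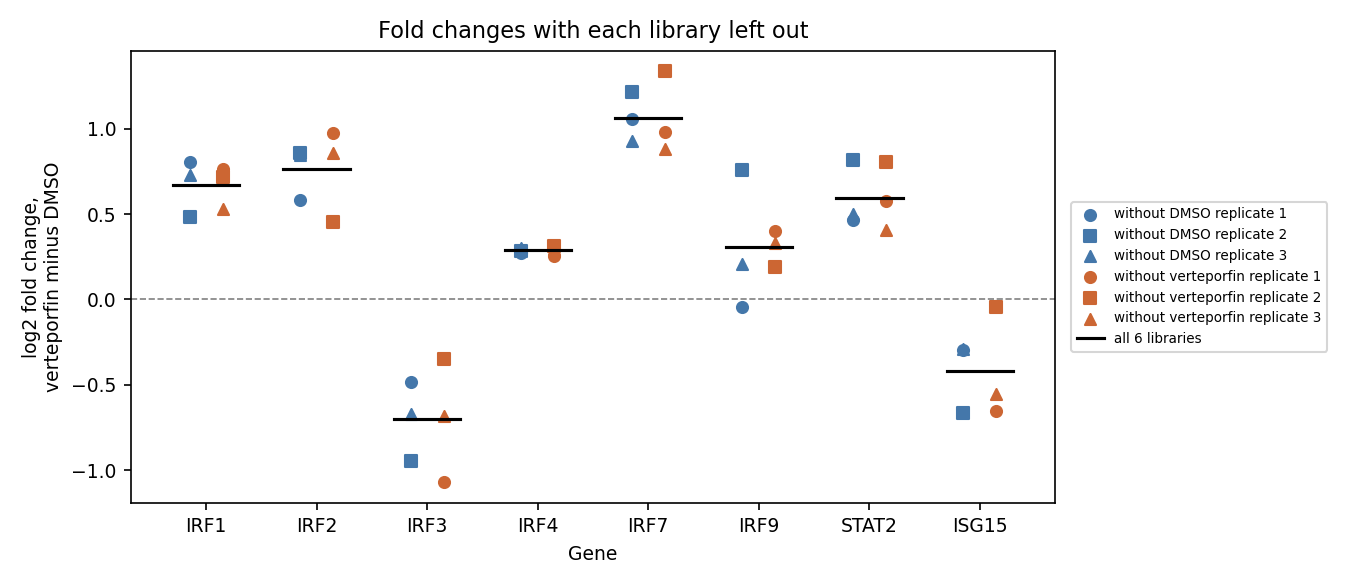
Log2 fold change of each gene, verteporfin minus DMSO, with each library left out in turn (points) and with all 6 libraries (line). IRF4 barely moves, IRF9 runs from -0.04 to 0.76, and IRF3 and ISG15 stay below 0.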

How the data were processed

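RNA of NALM6 cells was measured in 6 libraries, 3 with DMSO and 3 with verteporfin, from total RNA and a stranded kit per the labels' protocols. The deposited values are FPKM per Ensembl transcript, computed by the authors per the file headers. Per the submitters' processing notes, hg18 was the build, and the tools listed, with no role or order, include StringTie 1.3.3, HISAT2 2.1.0, edgeR, STAR, cutadapt and FastQC. Since 61862 of 62250 identifiers carry the suffix GENCODE gives after lifting to GRCh37, the build is uncertain and genes are given by chromosome only. A further 4765 entries of whole numbers, under repeated identifiers, were left out.

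Transcripts were matched by identifier to GENCODE 29 (275 unmatched, 0.442%), FPKM were summed to 13494 genes, and 12952 with a mean of at least 0.5 FPKM entered a 2-sided limma test (version 3.58.1, R 4.3.3, trended eBayes) of log2(FPKM + 1). P-values were adjusted by Benjamini-Hochberg over all genes. The fit was tested on simulated data. Depth is unknown, so the spread between libraries sets the precision. The remaining work was done in Python 3.11.15 (scipy 1.17.1, numpy 2.4.6, pandas 2.3.3, and for plots matplotlib 3.10.9).

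The members and lists were chosen with earlier results of these data known. Named besides the members were, per list, up to 5 tested genes of lowest p, the 3 genes most like ISG15, and member transcripts of at least 1 FPKM; further transcripts were chosen after their values were seen. Alternatives were other minimums, pseudocounts and scalings, no trend, a replicate block, library weights, libraries left out, single transcripts and coding transcripts only. Some genes of the lists are counted but not reported here by name.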

Additional observations from a re-analysis of the deposited data

Results flagged for a closer look

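An IRF2 entry among the whole-number values, under the main coding transcript ENST00000393593, was at 4 in verteporfin replicate 1 and at 0 in the other 5 libraries, DMSO included; it stands apart because it lies outside the FPKM values, and its unit is not given in the sources used here.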

How the results depend on the processing

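No member passed in the test as reported, which used all 6 libraries without weights. Of 144 values of the members under alternatives 140 kept their direction and their side of the threshold. The 4 others were IRF7 (1.45), STAT2 (0.99) and IRF1 (0.80), which passed with library weights, and IRF9, which was at -0.042 without DMSO replicate 1 and ranged up to 0.76. Genes called over all genes, 2 in the test as reported, numbered 0 with a pseudocount of 0.1 or 0.01, equal medians, no variance trend, both libraries numbered 2 left out or, chosen after the data were seen, coding transcripts only; 1081 with library weights; and 0 to 12 with 1 library left out (0 without DMSO replicate 1 or 2 or verteporfin replicate 3, 1 without DMSO replicate 3, 11 and 12 without verteporfin replicates 1 and 2). With the replicate number as a block there were 84, with 0 of the 8 members and 1 listed gene, TRIM22 (1.25, adjusted p = 0.0495). Deviations from the group means correlated at 0.389, 0.509 and 0.0985 for libraries numbered 1, 2 and 3, and at -0.396 and -0.464 between libraries numbered 1 and 2 of the other group. Deviations cancel out within a group, so positive values for like numbers bring negative ones across numbers. Verteporfin replicate 3 correlated best with DMSO replicate 1 (0.138). Pairing of all 3 numbers was thus not shown, and whether the libraries numbered 1 or 2 share a batch was not tested. With weights 13 of the 103 listed genes tested passed, 10 higher and 3 lower, where 8.35% of all genes passed and 5.35% as higher. The cause was not tested.

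Of 35 other named genes 562 of 587 values kept direction and side. Turned in sign were STAT6 with weights (0.16) and without verteporfin replicate 1 (-0.44 to 0.030 with 1 library left out), STAT5B with both libraries numbered 2 left out (0.21) or 1 left out (-0.50 to 0.25), USP18 likewise (0.043 and -0.29 to 0.058), STAT5A (-0.68 to 0.056) and TRIM25 (-0.39 to 0.18) with 1 left out, and IKZF1 over coding transcripts (0.17). The log2 difference in the ratio of IRF7 to IRF3 ranged from 1.67 to 2.32 with 1 library left out. Leaving out 1 library moved the log2 fold change by over 1.5 times for 4 of the 8 members (IRF2, IRF3, IRF9 and ISG15) and 19 of the 35 other genes. Low genes are limited by the unknown depth.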
